A study of Mus musculus with 9 samples.

Results

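The transcription factor genes Mxi1, Myc, Max, Mxd1, Mxd3, Mxd4, Mnt, Mga, Mlx and Mlxip, which belong to the MYC and MAX network, were followed in mouse primary macrophages kept at standard oxygen or in hypoxia. They were chosen by name, and all 10 were found by their gene identifiers among the 34866 genes listed. Mxi1 was included because its difference between these groups was already known, so its values are given here as a description with no test. The other 9 genes were added because they belong to the same network.

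MAX is a basic helix-loop-helix leucine zipper protein that pairs with MYC and with its antagonists and binds E-box DNA, of which CACGTG is the canonical form. MYC paired with MAX activates genes of ribosome production, metabolism and cell division, whereas the MXD proteins, MXI1 (also called MXD2), MNT and MGA compete for MAX and bring corepressors to DNA. MXD proteins, MXI1 and MNT recruit the SIN3 histone deacetylase complex, and MGA belongs to a Polycomb complex called PRC1.6. MLX is a MAX-like hub for the nutrient-responsive protein MondoA, encoded by Mlxip, and it also pairs with some MXD proteins. Mxi1 is a known target of hypoxia-inducible factors, which bind DNA at a short core sequence.

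Messenger RNA was sequenced from macrophages grown in vitro on alpha-MEM and serum, with L929-conditioned medium as the source of macrophage colony-stimulating factor. Standard oxygen cultures were kept so for 7 days, acute hypoxia cultures received 3 h of 1% oxygen after standard oxygen, and chronic hypoxia cultures spent 7 days at 1% oxygen. Each of the 3 groups had 3 biological replicates and therefore 3 libraries, and the labels name no strain, age, tissue of origin, genetic change or pooling of animals. Values are TPM, which scale transcript abundance by transcript length to the same total in each library, so they keep no sequencing depth and give no counting error.

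The sample descriptions carry digits that recur once in each group, and the labels do not say what they stand for. Libraries that share them are called sets here: set A is described as WN1201, WA1201 and WC1201 at standard oxygen, in acute and in chronic hypoxia, set B as NW1205, AW1205 and CW1205, and set C as NW0308, AW0308 and CW0308. The 3 libraries of set C stood apart: the phagocytic receptor gene Mertk was at 2.21 to 3.37 TPM in them and at 21.8 to 33.3 TPM in the other 6. All 10 macrophage markers reached a mean of 1 TPM, the summed fibroblast markers were at most 2.15 TPM, and those of dendritic cells, T cells, B cells, mast cells and red cells stayed below 2 TPM in every library. Of 8 neutrophil markers, S100a8 and Camp had a mean of at least 1 TPM and Retnlg was listed at 0 throughout. That list's sum was 895 to 1595 TPM at standard oxygen, 937 to 1908 TPM in acute hypoxia and 260 to 585 TPM in chronic hypoxia, and its part in the differences below was not tested. All 10 check genes of the hypoxia response were higher in both hypoxic groups than at standard oxygen on average, with median log2 differences of 1.67 in acute and 1.52 in chronic hypoxia.

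The RefSeq promoter windows of these genes, which reach from 250 bases before to 50 bases after a start site on GRCm38.p6, were searched on both strands for the hypoxia core, in the form ACGTG and in the form GCGTG, and for the E-box CACGTG, which contains ACGTG on each strand. Windows were matched for 9 of the 10 genes, all but Myc, and Mxi1 had 3 of the 11 windows. Either form of the hypoxia core was present for 8 of the 9 genes, against 43.8% of 32851 windows of the same length. CACGTG was present for 4 of the 9, Mxd4, Mnt, Mlx and Max, against 7.15% of all windows. A gene was counted when any of its windows held a match, so counts of genes and shares of windows are unlike units. These matches are descriptions of the letters, not of sites bound in these cells.

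Upstream stretches are shown for Mxi1, the gene around which the 10 were chosen, and for Mxd4, the only other member that differed in the main test. They run 5′ to 3′ on the gene's strand and leave out exons; the second lies in an intron of longer Mxi1 transcripts. Capitals mark ACGTG in the Mxi1 stretches and CACGTG in the Mxd4 stretch. The first Mxi1 window held no hypoxia core, the second held ACGTG 66 bases before its start site, and the third, not shown because it lies within exons, held ACGTG 25 bases before its start site.
Mxi1, chr19:53310256-53310505, plus strand: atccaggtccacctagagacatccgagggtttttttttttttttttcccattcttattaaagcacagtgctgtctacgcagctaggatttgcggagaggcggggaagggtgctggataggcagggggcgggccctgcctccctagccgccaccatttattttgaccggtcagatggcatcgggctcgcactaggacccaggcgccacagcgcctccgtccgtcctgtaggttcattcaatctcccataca
Mxi1, chr19:53329163-53329412, plus strand: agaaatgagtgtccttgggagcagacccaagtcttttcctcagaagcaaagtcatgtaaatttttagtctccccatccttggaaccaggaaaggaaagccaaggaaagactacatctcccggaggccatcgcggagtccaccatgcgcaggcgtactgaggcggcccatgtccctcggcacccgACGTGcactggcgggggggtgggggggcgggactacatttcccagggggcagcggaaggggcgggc
Mxd4, chr5:34187721-34187960, minus strand: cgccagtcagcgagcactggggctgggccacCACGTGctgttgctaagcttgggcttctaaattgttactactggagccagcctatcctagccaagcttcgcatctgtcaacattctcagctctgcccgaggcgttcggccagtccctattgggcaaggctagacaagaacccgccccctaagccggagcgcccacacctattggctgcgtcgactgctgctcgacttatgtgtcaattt

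The CACGTG matches of the other network genes are shown with 10 bases on each side, because this E-box is the letter sequence that the encoded proteins are known to bind. Capitals again mark CACGTG.
Mnt, chr11:74830791-74830816, plus strand: ccacccaagcCACGTGtgcgcgcgcg
Mlx, chr11:101087240-101087265, plus strand: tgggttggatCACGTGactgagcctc
Max, chr12:76962236-76962261, minus strand: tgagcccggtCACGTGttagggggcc

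Mxi1 transcripts were most abundant after 3 h of hypoxia and intermediate after 7 days. Mxi1 (chr19:53310518-53375810, plus strand, GRCm38) encodes a MAX-binding repressor that recruits SIN3. At standard oxygen it was at 20.6, 21.0 and 22.2 TPM in sets A, B and C, the order used throughout. In acute hypoxia the values were 49.8, 47.5 and 47.6 TPM. In chronic hypoxia they were 35.2, 31.2 and 33.8 TPM. The 3 groups did not overlap, and the set C libraries lay with the others. The mean was 21.3 ± 0.808 TPM (SD, n = 3) at standard oxygen, 48.3 ± 1.32 in acute and 33.4 ± 2.06 TPM in chronic hypoxia, which made 2.27 and 1.57 times the standard mean. On the scale of log2(TPM + 1), used for every difference here, acute minus standard was 1.15 ± 0.0848 (SE), chronic minus standard 0.63 ± 0.0985 and chronic minus acute -0.52 ± 0.0934. Without set C these differences were 1.19, 0.65 and -0.54. Within a set, acute minus standard ranged from 1.07 to 1.23, chronic minus standard from 0.55 to 0.75 and chronic minus acute from -0.59 to -0.48. In bulk RNA, a change in the number of cells that carry a transcript and a change in its amount per cell cannot be told apart, for Mxi1 and for every gene below.

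**Figure D1:**
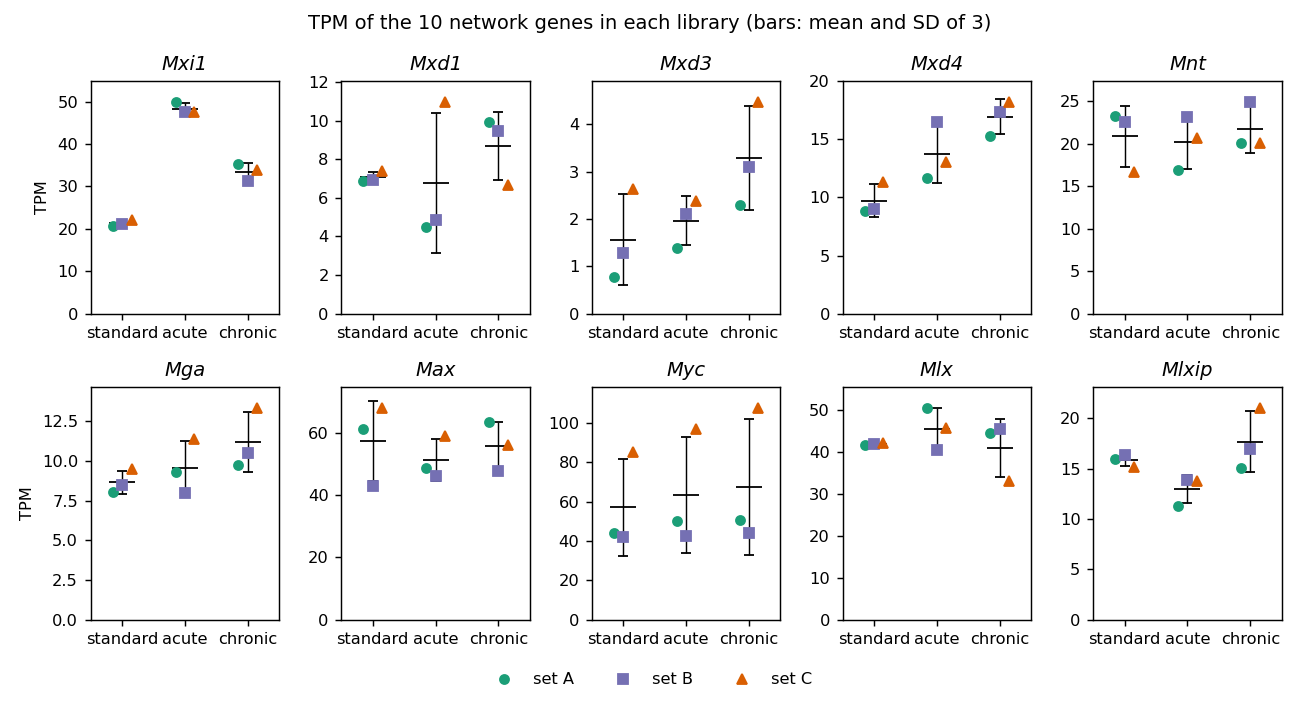
TPM of each of the 10 network genes (vertical axes, starting at 0) in every library of the standard, acute and chronic groups (horizontal axis), with point shape and colour giving the set and bars the mean and SD of 3 libraries. Mxi1 forms 3 separate groups around 21.3, 48.3 and 33.4 TPM, while Myc splits by set, with the set C libraries at 85.3, 96.9 and 107 TPM.

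The deposited TPM put the median gene higher in chronic hypoxia: the median log2 difference over all genes tested was 0.16 for chronic minus standard and 0.14 for chronic minus acute, against 0.0107 for acute minus standard. Rescaling each library by its median ratio brought these medians to between -0.00943 and -0.000524. Mxi1 chronic minus standard was then 0.45 and chronic minus acute -0.67. With the rescaled values, 115 of 11040 genes passed as higher and 117 as lower in chronic hypoxia than at standard oxygen, against 232 and 66 of 11067 with the deposited values. For chronic against acute the split was 33 higher and 50 lower of 11039 genes, against 61 and 16 of 11087.

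In acute hypoxia, 0 of the 9 other members passed an adjusted p of 0.05 (limma on log2(TPM + 1), Benjamini-Hochberg over 10987 genes), where 0.0273% of all genes passed. 1 of the 9 had an unadjusted p under 0.05 by limma, where 7.14% of all genes did. With the set as a block 0 of the 9 passed by limma, where 0.71% of genes passed, and 2 had an unadjusted p below 0.05, where 14.2% of genes did. Leaving out the 3 libraries of set C also gave 0 of 9, with 2.95% of genes passing. Of the 10 hypoxia check genes, 1 passed in acute hypoxia without a block and 6 with the set block. Against standard oxygen in chronic hypoxia, 8 and 9 of them did. The absence of a call in acute hypoxia therefore does not show the absence of a change. The groups did not overlap for 2 of the 9, Mxd4 and Mlxip, whereas this held for 12.5% of all genes tested. In chronic hypoxia against standard oxygen, 1 of the 9, Mxd4, passed, where 2.69% of genes passed, and the groups did not overlap for Mxd4 and Mga, where 29.6% of genes did not. Under the set block Mxd3 and Mxd4 passed, as did 18.4% of genes. After rescaling Mxd4 alone passed, without the block or with it, where 2.1% and 11.5% of genes passed. In chronic against acute hypoxia, 0 of the 9 passed in limma, where 0.695% of genes passed, and 1 had an unadjusted p under 0.05, where 20.8% of genes did. By the fit with a set block 0 of the 9 passed, where 15.5% of genes passed, and 3 had an unadjusted p under 0.05, where 35.7% of genes did. The groups of that comparison did not overlap for Mlxip alone, against 27.8% of genes. These shares of members lie near the background or rest on 1 or 2 genes. The comparisons share groups of libraries, so their values are set side by side and not counted as separate support.

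**Figure D2:**
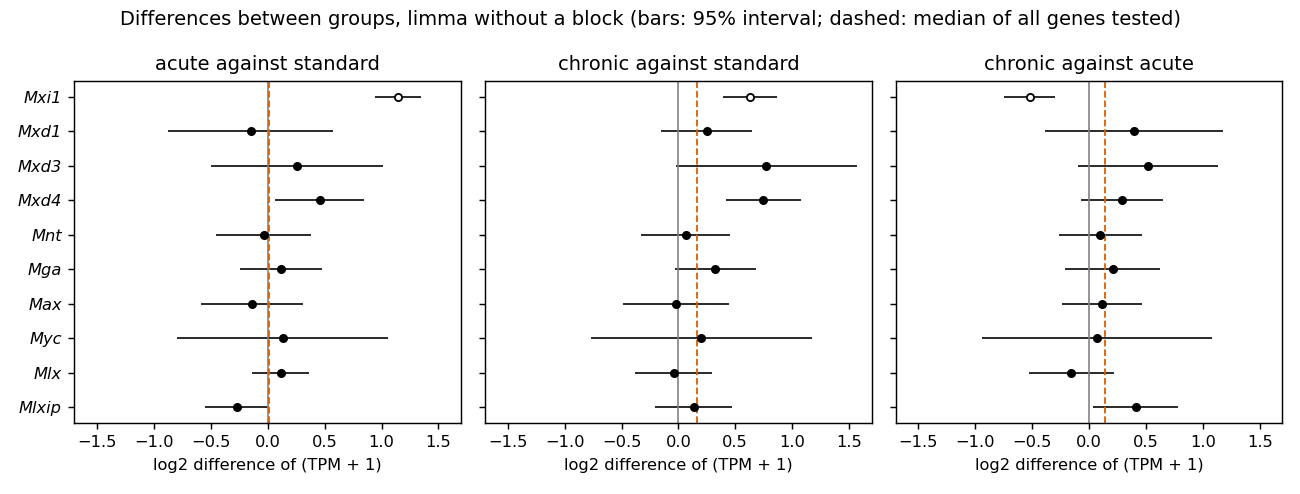
Log2 difference of (TPM + 1) (horizontal axes) for each network gene (vertical axis) in the 3 comparisons, with 95% intervals from limma without a block; the open point is Mxi1, which was not tested, and the dashed line is the median of all genes tested. Mxd4 in chronic against standard, at 0.75, is the only tested point whose adjusted p passed the threshold.

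Among the MXD repressors, Mxd4 rose in chronic hypoxia. Mxd4 (chr5:34173883-34187720, minus strand) encodes the MAX partner also called MAD4, which is linked to cells that leave the cell cycle. Its levels were 8.82, 9.03 and 11.3 TPM at standard oxygen, 11.7, 16.5 and 13.1 in acute and 15.3, 17.4 and 18.2 in chronic hypoxia. Every hypoxic library was above every standard library, and the acute and chronic libraries overlapped. The mean went from 9.73 ± 1.40 TPM (SD, n = 3) at standard oxygen to 17.0 ± 1.50 TPM in chronic hypoxia, 1.74 times as high. That log2 difference was 0.75 ± 0.139 (SE; limma adjusted p = 0.0493, adjusted p = 0.0149 with a set block, higher in 3 of 3 set pairs). It was 0.80 with an adjusted p of 0.0116 in limma without the set C libraries, where 21.1% of genes passed. After rescaling it was 0.58 with an adjusted p of 0.0471 in limma, where 2.1% of genes passed. The limma call was lost when any library but the set C standard one was left out, with adjusted p from 0.0738 to 0.198. It was lost with no filter on low values (adjusted p = 0.161, limma), without the intensity trend (0.0607) and with the title number as a block (0.178). In acute hypoxia the mean was 13.8 ± 2.48 TPM, and the difference from standard oxygen was 0.46 ± 0.164 (limma adjusted p = 0.601). Chronic minus acute was 0.29 ± 0.151 (limma adjusted p = 0.320).

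Mxd3 was the least abundant member, and its hypoxic values were above the standard value of the same set in most libraries. Mxd3 (chr13:55325168-55329823, minus strand) encodes MAD3, a MAX partner found in dividing cells. It was at 0.771, 1.28 and 2.64 TPM at standard oxygen, 1.38, 2.11 and 2.39 in acute and 2.29, 3.09 and 4.47 in chronic hypoxia. The chronic and standard groups overlapped, although chronic was higher within each set, by 0.59 to 0.90 on the log2 scale. The chronic excess over standard was 0.77 ± 0.332 (SE; limma adjusted p = 0.228), and the adjusted p was 0.0378 with a set block and 0.0699 with that block after rescaling. Acute minus standard was 0.26 ± 0.316 (limma adjusted p = 1.00) and chronic minus acute 0.52 ± 0.256 (limma adjusted p = 0.303). Levels this near to 1 TPM are compressed by the added 1 TPM, so the log2 differences understate the ratio of the means, which was 2.10 for chronic over standard.

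Mxd1 gave opposite directions in the set C libraries and in the others. Mxd1 (chr6:86647042-86669161, minus strand) encodes MAD1, the MAX partner classically raised as myeloid cells differentiate. It was at 6.89, 6.93 and 7.37 TPM at standard oxygen, 4.48, 4.85 and 11.0 in acute and 9.91, 9.47 and 6.67 in chronic hypoxia. In sets A and B the acute value was the lowest and the chronic value the highest, and in set C this order was turned round. Over all libraries no comparison passed: acute minus standard was -0.15 ± 0.302 (limma adjusted p = 1.00), chronic minus standard 0.25 ± 0.167 (0.427) and chronic minus acute 0.40 ± 0.326 (0.529). After rescaling the last 2 were 0.0886 and 0.26. Without the set C libraries, chronic minus standard was 0.43 ± 0.107 (limma adjusted p = 0.0487, where 21.1% of genes passed). Chronic minus acute was then 0.92 ± 0.119 (limma adjusted p = 0.0122, where 16.3% of genes passed), and acute minus standard -0.48 ± 0.116 (adjusted p = 0.115). Leaving out those libraries was decided after the data were seen and leaves 2 libraries per group.

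The repressors Mnt and Mga, which are larger MAX partners, did not pass the test in any comparison. Mnt (chr11:74830920-74845725, plus strand) encodes a widely expressed MYC antagonist. It was at 23.3, 22.6 and 16.7 TPM at standard oxygen, 16.9, 23.2 and 20.7 in acute and 20.1, 24.9 and 20.1 in chronic hypoxia, and the 3 groups overlapped. Its differences were -0.0375 ± 0.173, 0.0623 ± 0.163 and 0.0997 ± 0.153 for acute minus standard, chronic minus standard and chronic minus acute, and both chronic values turned negative, to -0.11 and -0.0507, after rescaling. Mga (chr2:119897228-119969581, plus strand) encodes the MAX partner of PRC1.6. It was at 8.04, 8.47 and 9.46 TPM at standard oxygen, 9.32, 8.0 and 11.4 in acute and 9.70, 10.5 and 13.3 in chronic hypoxia. Each chronic library was above every standard library, with the set C library highest in each group. Chronic minus standard was 0.33 ± 0.15 for Mga (limma adjusted p = 0.254), acute minus standard 0.12 ± 0.151 and chronic minus acute 0.21 ± 0.173. With a set block the SE of chronic minus standard was 0.0961 (limma adjusted p = 0.0762, and 0.320 with the block and rescaling). Mga was higher in chronic than in standard in 3 of 3 set pairs. After rescaling, the Mga differences that involve chronic hypoxia were 0.16 from standard and 0.0624 from acute.

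Max, the shared partner, overlapped between all groups. Max (chr12:76937269-76962201, minus strand) was at 61.1, 43.1 and 67.9 TPM at standard oxygen, 48.8, 46.3 and 59.0 in acute and 63.4, 47.9 and 56.2 in chronic hypoxia. The set B library was the lowest of its group in each condition. The differences were -0.14 ± 0.189 for acute minus standard, -0.0226 ± 0.194 for chronic minus standard and 0.12 ± 0.146 for chronic minus acute. Their 95% intervals without a block ran from -0.59 to 0.31, from -0.49 to 0.44 and from -0.23 to 0.47. With the set block they ran from -0.40 to 0.12, from -0.29 to 0.24 and from -0.15 to 0.38, and all of these intervals held 0. After rescaling, chronic minus standard was -0.20 and chronic minus acute -0.0392 for Max.

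Myc separated the libraries by set more than by oxygen. Myc (chr15:61985391-61990374, plus strand) encodes the activator of the network. It was at 43.9, 42.0 and 85.3 TPM at standard oxygen, 50.3, 42.4 and 96.9 in acute and 50.6, 44.2 and 107 in chronic hypoxia. In each group the set C library was the highest, and over the 3 groups its mean was 2.12 times that of the other sets. The group means were 57.0 ± 24.5, 63.2 ± 29.4 and 67.4 ± 34.7 TPM (SD, n = 3). Acute minus standard was 0.13 ± 0.385 (limma adjusted p = 1.00), chronic minus standard 0.20 ± 0.405 (0.803) and chronic minus acute 0.0706 ± 0.422 (0.944). Myc was higher in 3 of 3 set pairs in each comparison, and the set block reduced the standard errors to 0.0722, 0.079 and 0.0716. Without set C the 3 differences were 0.10, 0.14 and 0.0330, and after rescaling chronic minus standard was 0.0235 and chronic minus acute -0.0846. The summed neutrophil markers were at 585 to 1908 TPM in set C and 260 to 1024 TPM in the other sets. Of those 8 markers, only S100a8 and Camp had a mean of at least 1 TPM, and the part of this sum in the Myc values was not tested. The block's 95% intervals for Myc ran from -0.0568 to 0.32 in acute minus standard, from -0.00472 to 0.41 in chronic minus standard and from -0.11 to 0.25 in chronic minus acute, so differences of those sizes are compatible with these libraries. With the block and rescaling, the interval for chronic minus standard ran from -0.19 to 0.24. The paralogs Mycn and Mycl, which encode other MYC proteins, reached at most 0.154 and 0.0390 TPM in any library and were not tested.

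Neither gene of the MLX branch passed in any comparison fitted on its 6 libraries, without a block or with the set block. Mlx (chr11:101087277-101092207, plus strand) was at 41.8, 41.9 and 42.1 TPM at standard oxygen, 50.5, 40.6 and 45.9 in acute and 44.6, 45.5 and 33.2 in chronic hypoxia. The standard libraries lay within 1 TPM of each other and the hypoxic libraries lay on both sides of them. The Mlx differences were 0.11 ± 0.104 for acute minus standard, -0.0428 ± 0.14 for chronic minus standard and -0.16 ± 0.156 for chronic minus acute. After rescaling, the Mlx values for chronic hypoxia were -0.22 relative to standard oxygen and -0.31 relative to acute hypoxia. Of all 75-base windows along the longest Mlx transcript, 16.4% overlap Psmc3ip on the opposite strand. For Mxi1, 2.46% overlap Gm10197 on the opposite strand. Strand use in counting is not given in the sources used here, so Mlx is less certain than the others, and Mxi1 is affected to a smaller extent. Mlxip (chr5:123394798-123457932, plus strand), which encodes MondoA, was at 16.0, 16.3 and 15.2 TPM at standard oxygen, 11.3, 13.9 and 13.7 in acute and 15.0, 17.0 and 21.0 in chronic hypoxia. Its acute libraries were below all others. Acute minus standard was -0.27 ± 0.115 (limma adjusted p = 0.703), chronic minus acute 0.41 ± 0.155 (adjusted p = 0.210, and 0.0532 with a set block) and chronic minus standard 0.14 ± 0.141, which was -0.0344 after rescaling. With the set block and all 9 libraries in 1 fit, Mlxip chronic minus acute passed (limma adjusted p = 0.0418). After rescaling, that difference was 0.26 (limma adjusted p = 0.337, and 0.169 with the set block as well). Mlxipl, which encodes the MondoA relative ChREBP, reached at most 0.508 TPM and was not tested.

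Max or Myc was the most abundant member in every group, and Mxi1 went from the fourth place at standard oxygen to the third in acute hypoxia and back in chronic hypoxia. At standard oxygen the order was Max, Myc, Mlx, Mxi1, Mnt, Mlxip, Mxd4, Mga, Mxd1 and Mxd3. The libraries of Max and Myc, of Myc and Mlx, of Mxi1 and Mnt, and of Mxd4 and Mga overlapped there, and the other neighbours did not. In acute hypoxia the order was Myc, Max, Mxi1, Mlx, Mnt, Mxd4, Mlxip, Mga, Mxd1 and Mxd3, and Mxi1 overlapped with both Max and Mlx. In that group Mlx and Mnt, Mnt and Mxd4, and Mxd1 and Mxd3 were the neighbours that did not overlap. In chronic hypoxia the order was Myc, Max, Mlx, Mxi1, Mnt, Mlxip, Mxd4, Mga, Mxd1 and Mxd3, with Mxi1 overlapping Mlx and separate from Mnt. Max and Mlx, Mxd4 and Mga, and Mxd1 and Mxd3 were also separate in that group.

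The transcript balance between antagonists and MYC was described by ratios within a library, which inherit the choice of Mxi1 and carry no test. Mxi1 TPM over Myc TPM was 0.470, 0.501 and 0.260 at standard oxygen, 0.990, 1.12 and 0.492 in acute and 0.696, 0.706 and 0.315 in chronic hypoxia. In every set the acute ratio was the highest and the standard ratio the lowest, and the groups overlapped because set C was low throughout. Mxi1 TPM over Max TPM had means of 0.384 ± 0.0901 (SD, n = 3), 0.951 ± 0.125 and 0.603 ± 0.0476 in the same order of groups. The sum of Mxd1, Mxi1, Mxd3 and Mxd4 was 37.1, 38.3 and 43.5 TPM at standard oxygen, 67.4, 71.0 and 74.1 in acute and 62.8, 61.1 and 63.2 in chronic hypoxia. The 3 groups were separate in that sum, and acute and chronic lay closer together than for Mxi1 alone. Mxi1 made up 53.8 ± 2.51% of the sum at standard oxygen, 68.4 ± 4.97% in acute and 53.6 ± 2.58% in chronic hypoxia.

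**Figure D3:**
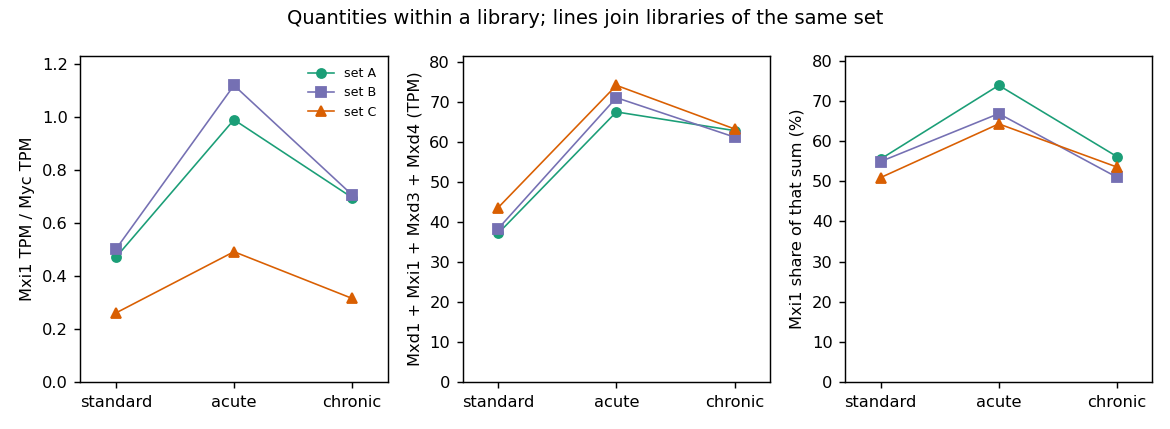
Mxi1 TPM over Myc TPM, the sum of Mxd1, Mxi1, Mxd3 and Mxd4 in TPM, and the Mxi1 share of that sum in percent (vertical axes, starting at 0) in the 3 groups (horizontal axis), with lines joining libraries of the same set. The ratio peaks in acute hypoxia in every set, and the Mxi1 share returns from a mean of 68.4% to 53.6% in chronic hypoxia.

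Over the 9 libraries, the genes whose log2(TPM + 1) followed Mxi1 most closely were Mgea5, Rest, Isca1, Vhl and Sertad1, among 7107 genes with a mean of at least 10 TPM. Mgea5 encodes the enzyme that removes O-GlcNAc from proteins, with Pearson r = 0.989 and means of 19.4 ± 1.49, 35.4 ± 1.06 and 26.1 ± 0.431 TPM (SD, n = 3) at standard oxygen, in acute and in chronic hypoxia. Rest, a repressor of neuronal genes, had r = 0.987 and means of 8.06 ± 1.12, 18.0 ± 0.511 and 12.9 ± 0.467 TPM. Isca1, an iron-sulfur cluster assembly factor, had r = 0.979 and means of 24.4, 42.1 and 36.1 TPM. These genes shared the order standard, chronic, acute with Mxi1, which follows from their choice by this correlation. Vhl, which encodes the ubiquitin ligase subunit that recognises hydroxylated hypoxia-inducible factors, had r = 0.974 and means of 9.77 ± 0.0928, 17.6 ± 0.880 and 14.2 ± 0.754 TPM. Sertad1, a transcriptional coregulator gene, had r = 0.955 and means of 18.0, 34.7 and 26.2 TPM. Against Mxi1, the other members had r from -0.507 for Mlxip to 0.570 for Mxd4. The genes most like Myc were Selenot, Tmem147, Tatdn1, Cct5 and Ddx18, with r from 0.984 to 0.994. Ddx18, an RNA helicase gene of ribosome production, had means of 34.2 ± 14.6, 33.3 ± 13.3 and 36.7 ± 16.4 TPM, so its spread lay within groups, as for Myc. The points of each correlation share the 3 sets and 3 conditions, and no p is attached.

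Lists of known genes covered partners and regulators of these factors, their known targets, other helix-loop-helix factors and cell cycle genes. They held 141 genes in all without the members. These genes include Ndrg1, which is also a hypoxia check gene, and 134 were tested in each comparison. By limma, 0 of them passed in acute against standard, 7 in chronic against standard, all higher, and 0 in chronic against acute, where 0.0273%, 2.69% and 0.695% of all genes passed. The count of 7 was 13 without the set C standard library and 0 without either other standard library or without the set A or set B chronic library. Leaving out the set C standard library gave 2 in acute against standard, and leaving out the acute or the chronic set C library gave 1 in chronic against acute. Under the set block the counts were 3, 39 and 27, where 0.71%, 18.4% and 15.5% of all genes passed. Without the set C libraries they were 8, 40 and 27, where 2.95%, 21.1% and 16.3% of all genes passed. After rescaling without a block, 1 passed in acute against standard (Cdkn1b) and 2 in chronic against standard (Ndrg1 and Txnip), where 0.191% and 2.1% of all genes passed. After rescaling with the set block the counts were 1, 23 and 13, where 0.49%, 11.5% and 9.61% of all genes passed.

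Among 16 genes of the SIN3 corepressor complex, through which MXI1 and the MXD proteins act, 1 passed in chronic against standard. It was higher in chronic hypoxia, and 2.69% of all genes passed in that fit. Sap30, a subunit that links SIN3 to histone deacetylases, was that gene, and its call was lost after rescaling. It was at 27.0, 35.7 and 35.3 TPM at standard oxygen, 36.3, 42.3 and 47.2 in acute and 55.0, 56.5 and 57.0 in chronic hypoxia. The 3 groups of Sap30 did not overlap. Sap30 chronic minus standard was 0.77 ± 0.13 (limma adjusted p = 0.0391), or 0.60 after rescaling (limma adjusted p = 0.0570, and 0.0289 with the set block as well). Acute minus standard was 0.35 ± 0.152 (limma adjusted p = 0.715). The list's median was 0.10 in acute and 0.26 in chronic hypoxia against standard oxygen, beside 0.0107 and 0.16 over all genes. Under the set block, Hdac1, Hdac2, Ing1, Ing2 and Sap30 were higher in chronic hypoxia than at standard oxygen, and Arid4a and Sap30 higher than in acute hypoxia. In these fits 18.4% and 15.5% of all genes passed. With rescaling added to the block, Sap30 alone passed against standard oxygen and 0 of the 16 against acute hypoxia.

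Among 10 partners of MGA in PRC1.6, Cbx3, which encodes a heterochromatin protein, went from 45.7 ± 2.70 TPM (SD, n = 3) at standard oxygen to 72.0 ± 7.24 TPM in chronic hypoxia. That difference was 0.64 ± 0.11 (SE; limma adjusted p = 0.0413), and the acute mean was 47.3 ± 4.89 TPM. After rescaling it was 0.46 and no longer passed (limma adjusted p = 0.0674, and 0.0245 with the set block as well). Under the set block, where 15.5% of all genes passed, Cbx1, Cbx3 and Ring1 were higher in chronic than in acute hypoxia. With rescaling added, Cbx3 alone was. Of 16 MYC coactivators and partners, 0 passed by limma in chronic against standard, with 3 at an unadjusted p under 0.05. Hcfc1 and Ruvbl2 were higher with a set block, where 18.4% of all genes passed. Both calls were lost with the block and rescaling, where 0 of the 16 passed (limma adjusted p of 0.117 for Hcfc1 and 0.137 for Ruvbl2). Of 13 tested genes of MYC turnover, 0 passed by limma in the same comparison, with 3 at an unadjusted p under 0.05. With a set block, where 18.4% of all genes passed, 5 of these 13 were higher. Among them were the mitotic kinase gene Aurka and the phosphatase inhibitor gene Cip2a, the only 2 that passed as higher with the block and rescaling. The kinase gene Pim1 was lower, from 38.3 ± 13.4 to 24.1 ± 7.29 TPM (log2 difference -0.63, limma adjusted p = 0.0149 with the block, and 0.0132 with the block and rescaling).

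The medians of the genes that MYC is known to activate lay near those of all genes. Of 40 activated targets of ribosome production and growth, 0 passed by limma in any comparison, with 1, 0 and 2 at an unadjusted p under 0.05 in acute against standard, chronic against standard and chronic against acute. The list's medians were -0.0333, 0.16 and 0.13, beside 0.0107, 0.16 and 0.14 over all genes. Under the set block, Ccnd2 and Ranbp1 were higher in chronic hypoxia than at standard oxygen, and Cdk4 and Npm1 higher than in acute hypoxia. Of all genes, 18.4% and 15.5% passed in these fits. Ccnd2 and Cdk4 encode parts of the cyclin D kinase, and Ranbp1 and Npm1 encode a nuclear transport factor and a nucleolar protein. With the block and rescaling, Ccnd2 alone was still higher. Odc1, which encodes the first enzyme of polyamine synthesis, was at 111, 111 and 82.2 TPM at standard oxygen, 156, 166 and 123 in acute and 101, 101 and 72.7 in chronic hypoxia. The acute libraries of Odc1 were above all others, and set C was the lowest in each group. By the fit with a set block, Odc1 was higher in acute than in standard (0.55, limma adjusted p = 0.0443) and lower in chronic than in acute (-0.70, adjusted p = 0.0107). With rescaling added, the acute call was lost (0.53, limma adjusted p = 0.0651), chronic minus acute was -0.85 (adjusted p = 0.00971), and chronic minus standard passed as lower (-0.33, adjusted p = 0.0376). On the deposited values without the block, the adjusted p-values in limma were 0.505 for acute against standard and 0.110 for chronic against acute.

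Of 7 tested genes that MYC is known to repress, 2 passed as higher in chronic hypoxia than at standard oxygen, where 2.69% of all genes passed. Of these 2, Ndrg1 alone passed after rescaling, where 2.1% of all genes did. The list's medians were 0.25 in acute against standard, 0.0464 in chronic against standard and -0.00149 in chronic against acute, beside 0.0107, 0.16 and 0.14 over all genes. Cdkn1b encodes the cell cycle inhibitor p27. It was at 8.17, 8.45 and 8.52 TPM at standard oxygen, 18.7, 20.1 and 24.3 in acute and 22.6, 24.7 and 16.3 in chronic hypoxia. Both hypoxic groups of Cdkn1b lay above the standard group and overlapped each other. Chronic minus standard was 1.22 ± 0.167 (limma adjusted p = 0.0272), and acute minus standard was 1.22 ± 0.124 with an adjusted p of 0.0568, or 0.0253 with a set block. After rescaling, Cdkn1b did not pass in chronic against standard (1.05, limma adjusted p = 0.0523, and 0.0207 with the set block as well), and it passed in acute against standard (1.21, adjusted p = 0.0204). Ndrg1, which is also a hypoxia check gene, was higher in chronic hypoxia by 1.54 ± 0.244 (limma adjusted p = 0.0365, and 0.0439 after rescaling). Cdkn1a, which encodes the inhibitor p21, was at 181 ± 55.8, 211 ± 57.8 and 161 ± 49.6 TPM, and it was lower in chronic than in acute hypoxia with a set block (-0.39, limma adjusted p = 0.0226, and -0.55 with 0.0166 after rescaling as well).

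Txnip, the best known target of MondoA and MLX and a brake on glucose uptake, gave the highest fold of the 7 pathway genes that passed. It was at 26.6, 24.6 and 91.2 TPM at standard oxygen, 184, 173 and 102 in acute and 343, 343 and 248 in chronic hypoxia. The 3 groups did not overlap, and set C was high at standard oxygen and low in both hypoxic groups. Txnip chronic minus standard was 2.94 ± 0.488 (limma adjusted p = 0.0391, and 0.0428 after rescaling), a ratio of means of 6.55. Acute minus standard was 1.89 ± 0.519 (adjusted p = 0.411, limma), and chronic minus acute was 1.05 with an adjusted p of 0.103, or 0.00969 with a set block. All 3 tested genes of the MondoA and MLX list, Txnip, Arrdc4 and Klf10, passed in chronic against standard with a set block, where 18.4% of all genes passed, and Txnip alone passed without it. With the block and rescaling all 3 passed, where 11.5% of all genes did. In acute against standard 0 of the 3 passed in any of these fits. The medians of these 3 genes were 1.22 in acute and 1.29 in chronic against standard, beside 0.0107 and 0.16 over all genes.

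Of 14 tested genes of other helix-loop-helix factors, 2 passed as higher in chronic hypoxia than at standard oxygen, where 2.69% of all genes passed. After rescaling 0 of the 14 passed by limma, with 2 at an unadjusted p under 0.05, where 2.1% of all genes passed. Bhlhe40, a repressor gene of the hypoxia and circadian responses, was at 20.9 ± 2.95 TPM (SD, n = 3) at standard oxygen, 54.7 ± 22.1 in acute and 36.4 ± 3.03 TPM in chronic hypoxia. Its groups at standard oxygen and in acute hypoxia did not overlap, and the set C library was the highest acute value at 80.1 TPM. Chronic minus standard was 0.78 ± 0.133 (limma adjusted p = 0.0406), or 0.61 after rescaling (adjusted p = 0.0731). Acute minus standard was 1.29 ± 0.269 (limma adjusted p = 0.232, 0.0494 with a set block, and 0.0651 with the block and rescaling). Srebf1, which encodes a regulator of lipid synthesis, went from 31.2 ± 1.03 to 45.6 ± 1.52 TPM in chronic hypoxia (log2 difference 0.53 ± 0.0896, limma adjusted p = 0.0391), which was 0.36 after rescaling (adjusted p = 0.112). Under the set block, where 15.5% of all genes passed, Mitf, Srebf2, Tfeb and Usf1 were higher in chronic than in acute hypoxia. With rescaling added, Mitf alone was. In chronic against standard, the block with rescaling left Srebf1 and Usf1 as higher.

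Cell cycle genes passed in chronic hypoxia in the fit with a set block and not in the fit without it. By limma without it, 0 of 15 passed in chronic against standard, with 8 at an unadjusted p under 0.05, and 0 of 15 in chronic against acute, with 9. With the block, 11 and 10 of 15 passed, all higher, where 18.4% and 15.5% of all genes passed. After rescaling as well, 8 and 7 passed, where 11.5% and 9.61% of all genes did. The list's median was 0.86 in chronic against standard and 0.63 in chronic against acute, beside 0.16 and 0.14 over all genes, and 0.21 in acute against standard, beside 0.0107. Ccnb2, a mitotic cyclin gene, was at 4.99, 5.28 and 10.3 TPM at standard oxygen, 5.19, 5.74 and 17.4 in acute and 21.0, 21.8 and 47.2 in chronic hypoxia. Set C was the highest of each group, and the chronic libraries of Ccnb2 were above all others. Ccnb2 chronic minus standard was 1.94 (limma adjusted p = 0.0538, and 0.00465 with a set block).

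**Figure D4:**
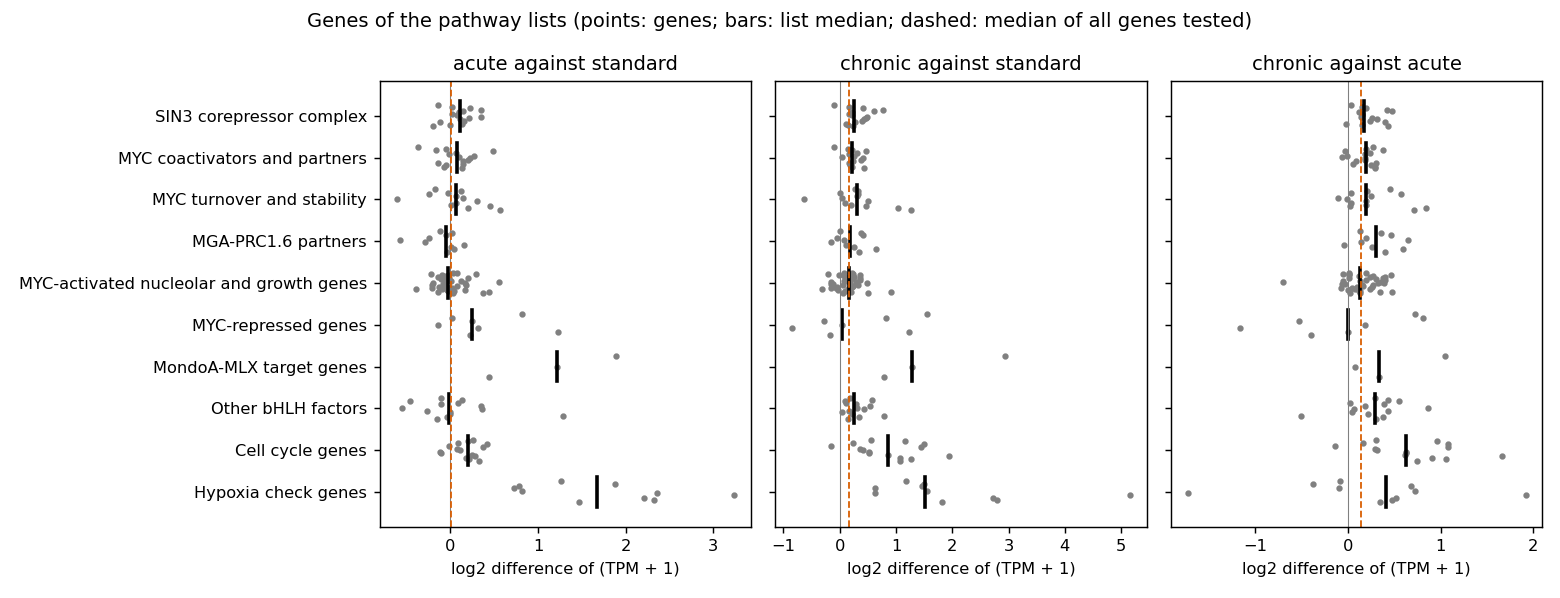
Log2 difference of (TPM + 1) (horizontal axes) of the tested genes of each pathway list (vertical axis) in the 3 comparisons; points are genes, bars list medians and the dashed line the median of all genes tested. The 40 MYC-activated genes centre on -0.0333, 0.16 and 0.13, close to the medians of all genes, while the hypoxia check genes centre on 1.67 and 1.52 in the comparisons with standard oxygen.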

How the data were processed

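The authors deposited TPM values per gene in 3 tables of 6 libraries. Each library is in 2 tables, and all 9 shared columns were identical. Per the submitters' processing notes, FastQC, STAR, featureCounts and the build GRCm38 were used; roles and versions are not given in the sources used here. Symbols matched 34582 of 34866 gene identifiers and all 213 list symbols. Coordinates come from GENCODE M21 and promoter sequences from RefSeq on GRCm38.p6.

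Groups were taken from the sample titles. Differences were tested on log2(TPM + 1) with limma 3.58.1 in R 4.3.3 (two-sided, intensity trend), on the 6 libraries of each comparison and genes with a mean of at least 1 TPM, with Benjamini-Hochberg adjustment over all genes tested and a threshold of 0.05. All 10 members passed this filter in every comparison. The members and lists were chosen with earlier results of these data known. From each list, the highest and lowest difference per comparison among genes that passed and had a mean of at least 5 TPM were eligible to be named; further names from the short lists, and Mertk, S100a8, Camp and Retnlg, were chosen after their values were seen. On simulated data for acute against standard (10987 genes), the test called 66 of 100 genes changed by a log2 difference of 1, 97 of 100 changed by 2 and 6 of 10787 unchanged genes. The simulated noise was independent between libraries, with no sets, and only more abundant genes were changed. These shares therefore need not hold for the real libraries or for low genes such as Mxd3.

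The sets, read from the sample descriptions, pair the libraries: deviations from group means of libraries with the same set correlated at 0.378 to 0.633 in every pair. Title numbers, which equal the set pairing only in chronic against acute, correlated as low as -0.515. Alternatives were pseudocounts 0.1 and 5, no filter or a mean of 5 TPM, no trend, median-of-ratios rescaling (factors 0.904 to 1.16), quantile normalization, all 9 libraries in 1 fit, blocks by set or title number, each replicate left out and, chosen after seeing the data, the set C libraries left out.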

Additional observations from a re-analysis of the deposited data

How the results depend on the processing

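The limits below follow from 3 libraries per group and from TPM, which give no depth. Among the 9 tested members, 0 passed in acute against standard under every alternative. In chronic against standard the count of 1 became 0 with no filter, without the trend and with the title number as a replicate block, 2 with the set as a replicate block, alone or with all 9 samples, and 2 without the set C libraries; single replicates left out gave 0 to 1. In chronic against acute the count of 0 became 1 with the set block and all 9 samples (Mlxip) and 1 without the set C libraries (Mxd1). Pathway genes in acute against standard (0) became 1 with rescaling, quantile normalization, all 9 samples or the set block with rescaling, 3 with the set block, 6 with that block and all 9 samples, 8 without set C, and 0 to 2 with single replicates left out. Pathway genes in chronic against standard (7) became 1 with no filter or no trend, 2 with rescaling or quantile normalization, 0 with the title block, 39 with the set block, 23 with it and rescaling, 45 with it and all 9 samples, 40 without set C, and 0 to 13 with single replicates left out. Those in chronic against acute (0) became 2 with all 9 samples, 27 with either block, 13 with the set block and rescaling, 37 with that block and all 9 samples, 27 without set C, and 0 to 1 with single replicates left out. The blocks changed no other call of a member than those of Mxd3, Mxd4 and Mlxip. Several small log2 differences changed sign. After rescaling, and after rescaling with the set block, Mnt was -0.11 and Mlxip -0.0344 in chronic against standard, and Myc was -0.0846, Max -0.0392 and Mnt -0.0507 in chronic against acute; quantile normalization gave -0.12, -0.0499, -0.0529, -0.0223 and -0.0663 for the same 5. Without set C, Max was 0.10, Mnt -0.0333, Mlx 0.10 and Mlxip -0.0162 in chronic against standard. Single replicates left out gave, in acute against standard, Myc -0.22 to 0.45, Mxd1 -0.51 to 0.0534, Mnt -0.18 to 0.0822 and Mga -0.00037 to 0.23; in chronic against standard, Myc -0.19 to 0.53, Max -0.21 to 0.11, Mnt -0.0823 to 0.14 and Mlx -0.12 to 0.10; in chronic against acute, Myc -0.32 to 0.42 and Mnt -0.0199 to 0.20. Mxi1 kept its direction under every alternative. With a minimum mean of 5 TPM Mxd3 was not tested. The cause of these shifts was not tested.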
